A study of Mus musculus with 4 samples.

Results

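Gnas, Gm20721 and Nespas are 3 overlapping gene entries of the imprinted Gnas locus on mouse chromosome 2, out of 50600 genes listed in the deposited tables. They were selected by name, Gm20721 on its level in these libraries and on its exons lying opposite Gnas, and Nespas as the annotated antisense gene of the locus. Their levels, and the ratio of Gm20721 to Gnas, are therefore given as descriptions with no test. RNA was measured in 4 libraries of mouse T-helper 2 (Th2) cells, CD4 T cells that secrete interleukin 4, which were differentiated in culture from C57BL/6NJ mice. These libraries, replicates 1 to 4, form 1 group with no genotype change and no comparison treatment in the labels. The sex was not collected and the age is unknown. All 4 carry the same donor identifier, so SDs and p-values cover only the spread among these 4 libraries, and part of it may be technical. The table headers record 16 hours, a time the labels do not give. The labels call the assay total RNA-seq, while the linked protocol is named for poly(A) RNA.

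Gnas encodes the stimulatory G protein alpha subunit Gs alpha, which couples hormone and prostaglandin receptors to adenylyl cyclase and so raises cyclic AMP, a second messenger that restrains T cell activation. The same locus uses several alternative first exons. The maternal copy gives the chromogranin-like protein NESP55, and the paternal copy gives the extra-large variant XL alpha s and the noncoding exon 1A transcript. Nespas is a paternally transcribed noncoding RNA that runs antisense to the NESP55 exon, and in mice it is known for its part in silencing NESP55 on that copy. Gs alpha itself comes from both copies in most tissues.

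The geometry decides what each entry can count, so it is given before the values. Coordinates are those of the deposited tables on mm10. Gnas spans chr2:174284320-174346744 on the plus strand, with 11186 exonic bases in 19 merged exons. Gm20721 is listed on the minus strand at chr2:174330319-174346712, with 1484 bases in 13 exons. GENCODE M21 gives it as protein-coding with 1 transcript, an automatic model. Nespas lies on the minus strand at chr2:174281237-174295436, with 3143 bases in 5 exons, and carries the type antisense.

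Gm20721 mirrors the last exons of Gnas. Of its 13 exons, 12 shared at least 1 base with a Gnas exon, 8 lay wholly opposite Gnas exons and 3 had both ends at the same coordinates as a Gnas exon. In bases, 1469 of 1484 (99.0%) lay opposite Gnas exons and 15 did not. The same 1469 bases were 13.1% of Gnas. The gap between exons 11 and 12 of Gm20721 was 4 bases, the smallest of the entry, and exon 11 itself was 7 bases long. The base of Gm20721 nearest to the Gnas start lay 45999 bases downstream of it, so the entry covered none of the NESP55 or XL alpha s first exons. Nespas touched the other end: 988 bases of its exon 3 (1083 bases) lay opposite Gnas, 156 in Gnas exon 1 and 832 in exon 2, which carry NESP55. Together these left 8729 bases of Gnas, chiefly in exons 4 to 8, with neither entry opposite.

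Sequences of matching exons show the relation at the level of bases. They come from GENCODE M21 transcripts on mm10, each written 5′ to 3′ on its own strand in lower case, with capitals for the bases of Gm20721 outside any Gnas exon. The first pair is exon 5 of Gm20721 (minus strand, chr2:174345225-174345301) and exon 15 of Gnas (plus strand, chr2:174345228-174345301), which share an end and differ by 3 bases at the other. The second pair is the first 60 coding bases of NESP55 in Gnas exon 2 (plus strand, chr2:174284674-174284733) and the same bases of Nespas exon 3 on the minus strand. The last is Gm27869 (plus strand, chr2:174295071-174295192), a 122-base entry of type misc_RNA that lies wholly opposite Nespas exon 1 and is shown because it was counted where Nespas was not.
Gm20721 exon 5: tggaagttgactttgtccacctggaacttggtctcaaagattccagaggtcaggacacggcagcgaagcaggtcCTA
Gnas exon 15: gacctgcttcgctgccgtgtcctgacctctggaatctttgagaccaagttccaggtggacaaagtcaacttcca
Gnas exon 2, start of NESP55: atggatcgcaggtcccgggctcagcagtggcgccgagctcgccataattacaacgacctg
Nespas exon 3, same bases: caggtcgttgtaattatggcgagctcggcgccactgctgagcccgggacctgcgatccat
Gm27869: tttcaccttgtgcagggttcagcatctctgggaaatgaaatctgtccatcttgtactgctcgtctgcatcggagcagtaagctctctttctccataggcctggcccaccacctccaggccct
Each member of a pair is the reverse complement of the other over the shared bases. Over the whole locus, all 2457 Gnas bases opposite Gm20721 or Nespas were the complement of the minus-strand base. A fragment from these bases is told apart only by its strand, and the headers record that fragments were counted on 1 strand, with strand option 1.

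**Figure D1:**
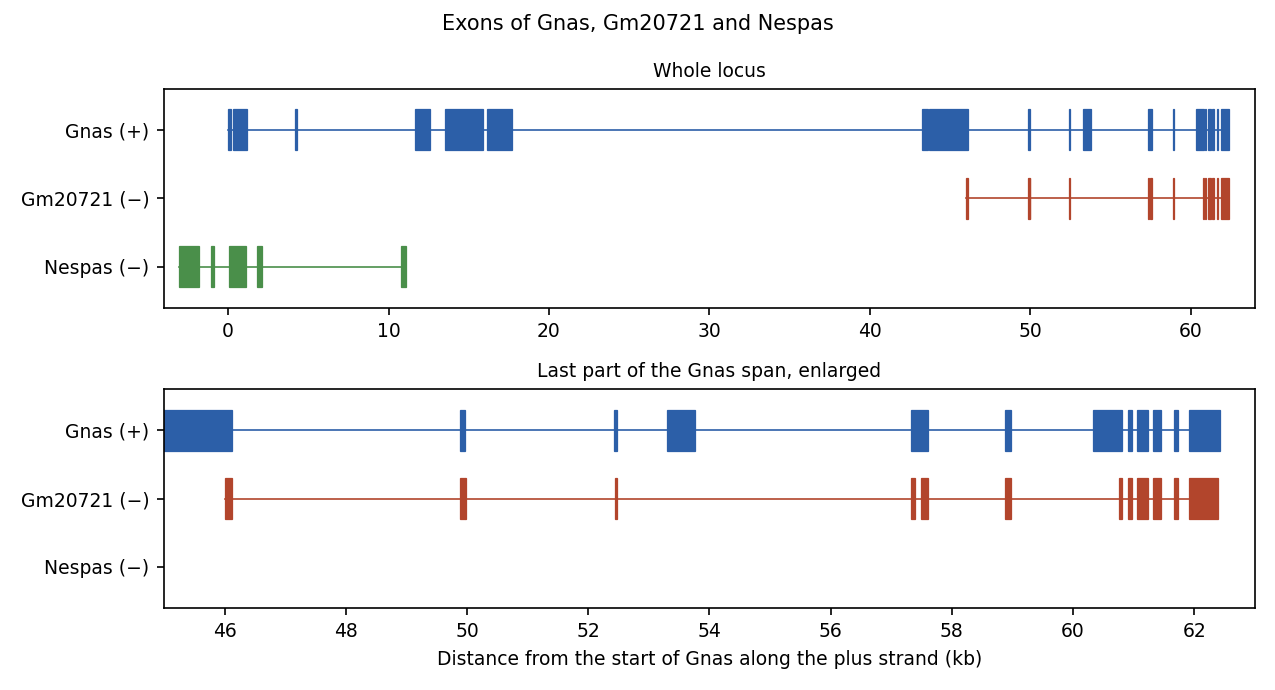
Exons (boxes) and spans (lines) of Gnas on the plus strand and of Gm20721 and Nespas on the minus strand, against the distance in kb from the Gnas start, for the whole locus (top) and for the end of Gnas (bottom). The exons of Gm20721 stand under the last Gnas exons, and only exon 3 of Nespas stands under Gnas exons.

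The libraries held 1688658 to 2222583 counts, and an entry with 0 counts may lie anywhere up to 3 counts, a CPM (counts scaled by the library total) of 1.35 to 1.78. Genes with an exon opposite an exon of another gene held 90.1 to 93.3% of the counts, although 8189 of 50600 genes have one. Among mitochondrial mRNAs, mt-Nd6, the one encoded on the minus strand, held 87.2 to 92.0% of counts. All 12 T cell identity genes were counted in all 4 libraries, with a median of 13.5 TPM (counts scaled by gene length and library total), led by Cd247 (exon opposite Pou2f1), Trac and Trbc2. Of 12 Th2 genes 8 were counted, with a median of 3.46 TPM and Ptgdr2 (exon opposite Ccdc86), Irf4 and Ccr4 highest, and the cytokine genes Il5 and Il13, the transcription factor gene Maf and the receptor gene Il1rl1 were at 0. Of 21 markers of other cell types 4 were counted, Csf1r at 155 ± 14.5 TPM (SD, n = 4) with 871 bases opposite Hmgxb3, Cd79a, Cd8b1 and Cpa3. The level of every entry in the following is that on the counted strand, and whether it is the strand of the RNA was not tested.

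Gm20721, the mirror-image entry, had the highest level of any protein-coding nuclear gene in each of the 4 libraries, which is how it was chosen. It had 21870, 21630, 25763 and 23460 counts in replicates 1 to 4. Its TPM was 12625, 12651, 11618 and 12326, a mean of 12305 ± 481 (SD, n = 4). Replicate 3, the deepest library, had the most counts and the lowest TPM, and no library stood apart from the others. Among all genes, mitochondrial and noncoding ones included, it ranked 6, 8, 6 and 5 by TPM in replicates 1 to 4. It took 1.24 ± 0.0589% of the counts of a library (SD, n = 4). No protein product or function is given for the entry in the files or annotation used here.

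Gnas, the gene of the Gs alpha protein, was counted in every library, at a level that ranked 2560, 2530, 2483 and 2287 by TPM among the 21751 protein-coding nuclear genes in replicates 1 to 4. It had 80, 76, 87 and 121 counts in replicates 1 to 4. The CPM was 47.4, 44.6, 39.1 and 64.3, a mean of 48.9 ± 10.9 (SD, n = 4). The TPM was 6.13, 5.90, 5.20 and 8.43, a mean of 6.42 ± 1.40 (SD, n = 4). Replicate 4 was the highest and replicate 3 the lowest. The share of library counts in genes without an exon opposite took the same order, at 8.31, 7.75, 6.70 and 9.93% in replicates 1 to 4, and its part in the Gnas values was not tested. Counts are per gene, so NESP55, XL alpha s, exon 1A and Gs alpha transcripts cannot be told apart. GENCODE M21 lists 24 Gnas transcripts, 5 of which start at the NESP55 exon, 7 at XL, 5 at exon 1A, 5 at the Gs alpha exon and 2 elsewhere.

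Nespas, the antisense RNA of the NESP55 end, had 0 counts in all 4 libraries. Scaled by its length, 3 counts would be 0.818, 0.828, 0.639 and 0.744 TPM in replicates 1 to 4. On the counted strand, 0 counts allow levels up to these values, for counting error only. Whether that strand is the strand of the RNA was not tested, so these values set no limit on Nespas RNA itself. An absence of counts was less frequent among antisense genes than over all genes listed. Of 2566 antisense genes, 1159 (45.2%) had no count in any library, against 33169 of 50600 (65.6%) over all genes. Of the 83 antisense genes with at least as many bases opposite other exons as Nespas, 19 (22.9%) had none. Nespas is thus in the smaller share of that subset, and the 988 bases it shares with Gnas drew no count on the minus strand.

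Plus-strand entries at Nespas had counts where Nespas had none. Gm27869, opposite Nespas exon 1, had 7, 12, 15 and 2 counts in replicates 1 to 4, or 57.4 ± 34.0 TPM (SD, n = 4). Gm27849 (chr2:174295337-174295461), with 100 of its 125 bases opposite the same exon, had 2, 4, 2 and 0 counts. Gm27899 (chr2:174286608-174286671), within an intron of Nespas, had 1, 0, 1 and 0. The 3 entries summed to 10, 16, 18 and 2 counts over 311 bases, 222 of them opposite Nespas exons. Replicate 4 had the fewest of these counts and the most of Gnas. The annotation gives no function for these misc_RNA entries.

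**Figure D2:**
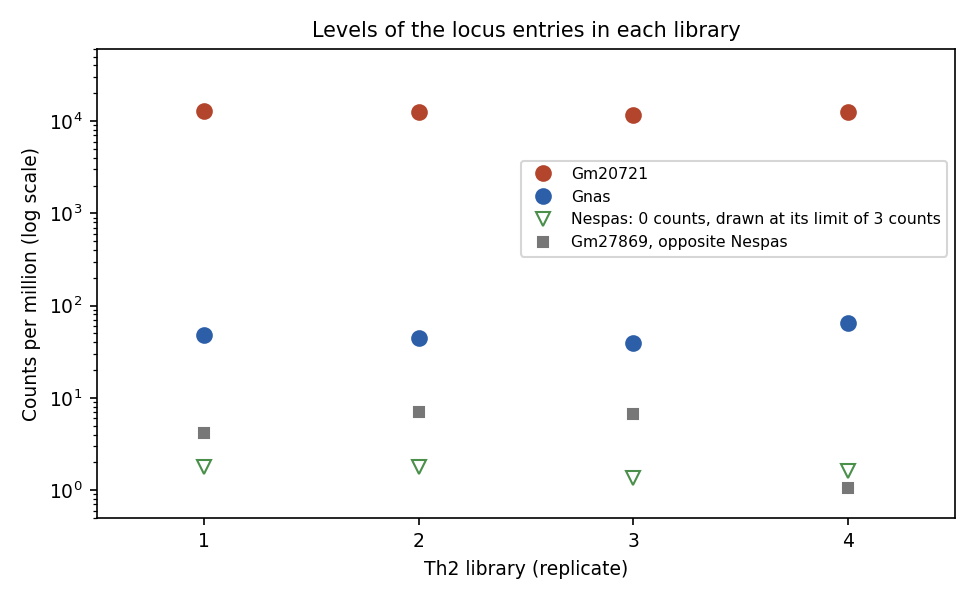
CPM (log scale) of Gm20721, Gnas and Gm27869 in the 4 Th2 libraries, with Nespas, at 0 counts, drawn as open triangles at the limit of 3 counts. Gm20721 sits at 11591 to 12951, Gnas at 39.1 to 64.3, and Gm27869 lies above the Nespas limit in replicates 1 to 3 and below it in replicate 4.

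Gm20721 had far more counts than Gnas in every library. The Gm20721 count was 273, 285, 296 and 194 times the Gnas count in replicates 1 to 4. Per kilobase of exon the ratio was 2061, 2145, 2232 and 1461, and its log2 was 11.01, 11.07, 11.12 and 10.51, a mean of 10.93 ± 0.28 (SD, n = 4). Replicates 1 to 3 lay close together and replicate 4 lay below them. As a share of the counts of both entries, Gnas took 0.364, 0.350, 0.337 and 0.513% in replicates 1 to 4. The 95% Wilson intervals of these shares reached from 0.293 to 0.453% for replicate 1 and from 0.280 to 0.438% for replicate 2. For replicate 3 the bounds were 0.273 and 0.415%, and for replicate 4 they were 0.430 and 0.613%. The interval of replicate 4 overlapped those of replicates 1 and 2 and lay above that of replicate 3. Pooled over the libraries, 364 of the counts were Gnas and 92723 Gm20721, a Gnas share of 0.391% (95% exact interval 0.352 to 0.433). Intervals and the limit of 3 counts cover counting error only.

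**Figure D3:**
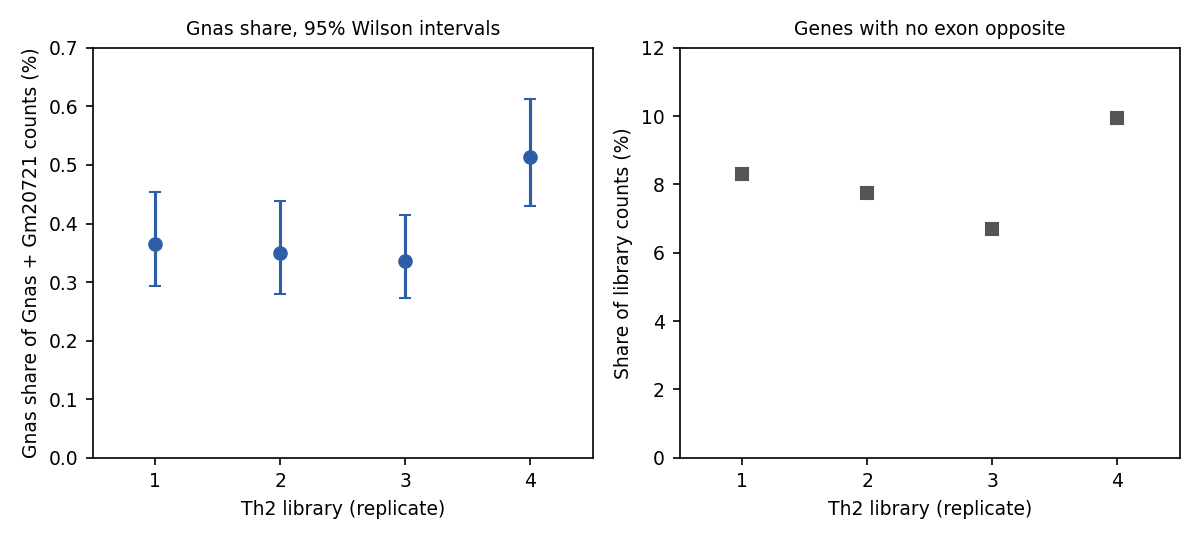
Left, the Gnas share of the counts of Gnas and Gm20721 in percent with 95% Wilson intervals, in each Th2 library; right, the share of library counts in genes without an exon on the other strand, in percent. Replicate 4 is highest in both panels, at 0.513% and 9.93%, and replicate 3 is lowest, at 0.337% and 6.70%.

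The size of this ratio depended on the length each count was set against. The tables give 1 count per gene, so the counts that fell in the shared bases cannot be separated from the rest of Gnas. With no length scaling the mean log2 ratio was 8.01. With the whole count of each entry set against only its bases opposite other exons, it was 8.76. Of the 2457 such bases of Gnas, 988 lie opposite Nespas, so 8.76 is not a value for the shared bases. Both ratios lie below the per-kilobase value because Gnas has more exonic bases. Gm20721 was the higher of the pair in all 4 libraries under each scaling.

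Neither of the 2 entries that could be tested varied between replicates beyond genes of like abundance. The spread over the 4 libraries was tested for 4918 genes that passed the count filter, against the spread that edgeR's quasi-likelihood fit gives for genes of like abundance. At a Benjamini-Hochberg adjusted p of 0.05, 22 genes (0.447%) varied beyond it. Gm20721 and Gnas passed the filter and 0 of 2 varied, with edgeR adjusted p = 0.991 for each, while Nespas did not pass. Unadjusted edgeR p-values were 0.820 for Gm20721 and 0.596 for Gnas, where 281 genes had one under 0.05. The number called depended on the fit: it was 56 with no count filter, 11 without replicate 4, 9 with a prior that was not robust and 2 with library totals only. DESeq2 called 1 gene and limma 0 (208 at an unadjusted p under 0.05), so that these tools called neither entry says little about them. The coefficient of variation of the CPM was 4.74% for Gm20721 and 22.2% for Gnas. By the ratio of its edgeR quasi-dispersion to that given for genes of like abundance, Gm20721 stood at percentile 18.3 of the tested genes and Gnas at percentile 41.1.

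The genes nearest in profile over the libraries were listed for Gm20721 and Gnas. For each, the 5 tested genes with the smallest root mean square difference in log2 CPM deviations over the 4 libraries were taken. For Gm20721 these were Abi3, Gm28364, Gm44709, Unc13a and Mkrn2, at differences of 0.0071 to 0.012. All 5 have an exon opposite, as do 3162 (64.3%) of the tested genes. For Gnas they were Srsf5, a splicing factor gene, Snrnp27, Zc3h18, Ppp2r3d and Ptms, at 0.0050 to 0.029. None of these 5 has an exon opposite, although Gnas itself does. The likeness rests on 4 values for each gene, was fixed by taking the smallest differences of all tested genes, and was not tested.

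Many other genes that lie almost wholly opposite exons had counts too. With at least 95% of exonic bases opposite exons of other genes there were 527 genes, of which 315 had a count. The median was 77.3 TPM among those counted and 3.12 TPM over all 527. Over all 50600 genes, 17431 (34.4%) had a count and the median was 0 TPM. Gm20721 had the most counts of the 527 genes and ranked 3 by TPM. Above it were Gm22953 at 18279 ± 574 TPM, opposite Serf2, and Gm17041 at 12462 ± 944 TPM, opposite Cish, a cytokine signalling inhibitor gene (SD, n = 4). Next below it was Gm11175 at 11116 ± 1241 TPM (SD, n = 4), opposite the AP-1 gene Jund. Of the 41 protein-coding genes in the set 32 had a count, where 56.5% of protein-coding nuclear genes did. Gm20721 ranked 1 by TPM among the 41. The next was Gm26602 at 3637 ± 492 TPM, opposite R3hdm4, and then Gm17617 at 2466 ± 165 TPM, opposite Zfp346 (SD, n = 4).

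Of the 527 genes, 195 had a mean count of at least 10 and a partner gene with a count in some library. Each was set against that partner. Entries whose partner had no count were left out, and partners had no further minimum. The entry exceeded its partner per kilobase in 188 of the 195 (96.4%), with a median log2 ratio of 8.80. Asking for a mean count of at least 10 in the entry alone favours a ratio on this side. These values therefore describe the pairs compared and support nothing. On the mean values the log2 ratio of Gm20721 over Gnas was 10.91, and 19 pairs had a larger one. Among all genes listed, in the set or not, 11 had a mean count of at least 10000. Their coefficients of variation ran from 3.49 to 87.0% with a median of 6.47%, and 2 of them varied less than Gm20721. The place of Gm20721 in these orders follows in part from its choice by level.

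**Figure D4:**
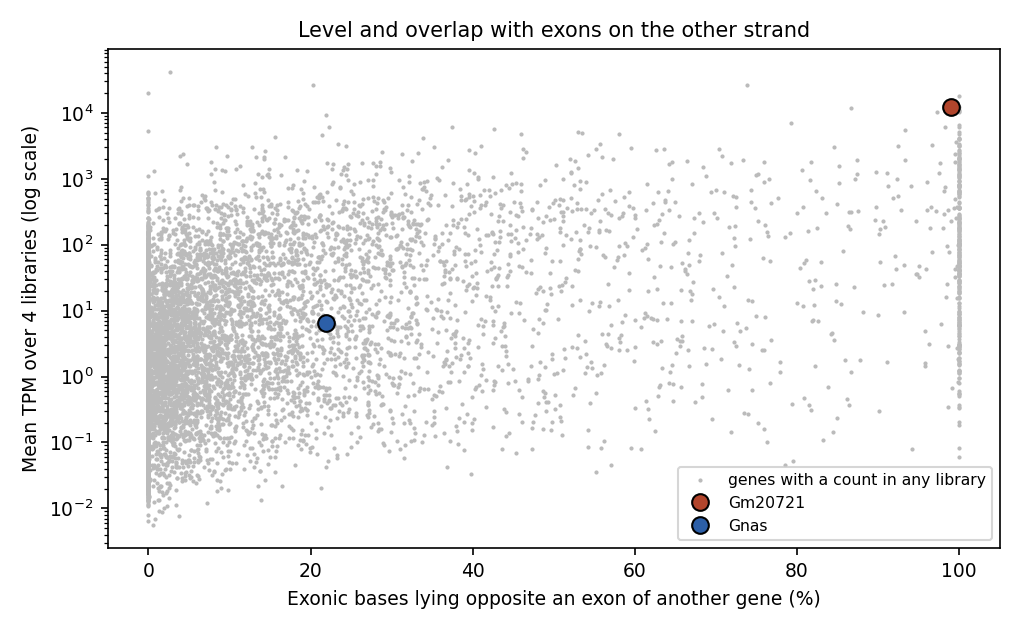
Mean TPM over the 4 Th2 libraries (log scale) against the percent of exonic bases that lie opposite an exon of another gene, for each gene with a count in any library. Gm20721, at 99.0% and 12305 TPM, is in the top right corner, and Gnas, at 22.0% and 6.42 TPM, lies among the bulk of genes.

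Neighbours of the locus had few counts, and their levels lay on both sides of that of Gnas. Within 200 kb of its outer ends 16 other genes are listed, 10 with a count. Ctsz, the cathepsin Z gene, had 70, 64, 73 and 74 counts in replicates 1 to 4, or 38.5 ± 3.33 TPM (SD, n = 4). Nelfcd, a subunit gene of the negative elongation factor, had 45, 31, 22 and 23, or 8.51 ± 3.70 TPM (SD, n = 4), and overlaps Ctsz by 10 bases on the other strand. Of the rest, none with a count has an exon opposite apart from Gm27869 and Gm27849. Prelid3b and Atp5e, genes of mitochondrial proteins, were at 6.85 ± 2.70 and 3.54 ± 1.24 TPM, Npepl1 at 2.89 ± 1.62 TPM and the syntaxin gene Stx16 at 1.56 ± 0.853 TPM (SD, n = 4). The antisense entry Gm10714 had 1, 4, 1 and 3 counts in replicates 1 to 4. No gene in the window apart from Gnas and Gm20721 had more than 74 counts in a library. The microRNA genes Mir296 and Mir298, minus-strand entries beyond the end of Nespas, had 0 counts, as had the platelet tubulin gene Tubb1.

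Among the G proteins, Gnas was 1 of the 3 highest alpha subunit genes. Of 13 listed, 11 had a count in some library and 7 in all 4, with a median of 0.517 TPM. Without Gnas, 10 of 12 had a count and the median was 0.446 TPM, against 56.5% of protein-coding nuclear genes with a count and a median of 0.128 TPM. Over all 50600 genes, 34.4% had a count and the median was 0. Gnal, of the olfactory Gs-like subunit, was at 88.5 ± 4.45 TPM (SD, n = 4) and has 365 bases opposite Mppe1. Gnai2, the main inhibitory subunit gene of lymphocytes, has none opposite and was at 6.72 ± 1.82 TPM (SD, n = 4), which differed from Gnas at 6.42 ± 1.40 TPM by less than the spread between replicates. Gnai3 was at 3.54 ± 1.47 TPM (SD, n = 4). Gnai1 and Gnaz had 0 counts. Of 15 beta and gamma subunit genes 10 were counted, led by Gng13 at 358 ± 21.1 TPM (399 bases opposite Chtf18) and Gng3 at 92.1 ± 5.74 TPM (398 bases opposite Bscl2), with Gng5, which has none, at 15.0 ± 0.711 TPM (SD, n = 4).

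Receptors and effectors of the Gs pathway were counted in part. Of 18 receptor genes that couple to Gs, 10 had a count, with a median of 0.0978 TPM. The prostaglandin E2 receptor genes led, Ptger4 at 35.7 ± 3.08 TPM, with exons opposite Ttc33 and Gm15937, and Ptger2, with none, at 15.9 ± 2.27 TPM (SD, n = 4). The prostacyclin receptor gene Ptgir came next at 0.921 ± 0.608 TPM, and the beta-adrenergic gene Adrb1 was at 0. Of 9 adenylyl cyclases, the enzymes that Gs alpha stimulates, 5 were counted in all 4 libraries. Adcy3 was at 24.2 ± 2.37 TPM, with 1380 bases opposite Cenpo, Adcy7 at 9.38 ± 1.25 TPM and Adcy5 at 2.31 ± 0.956 TPM, both without an exon opposite (SD, n = 4).

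Genes listed around cyclic AMP were all counted, some of them in part of the libraries only. All 22 genes for cyclic AMP effectors, regulators and phosphodiesterases had a count in some library and 15 in all 4, with a median of 0.921 TPM. Ric8a, a chaperone gene for G protein alpha subunits, was at 12.96 ± 1.09 TPM, with 808 bases opposite Bet1l and Sirt3. The phosphodiesterase genes Pde7a and Pde8a were at 6.59 ± 2.24 and 4.51 ± 1.09 TPM (SD, n = 4). Few pathway genes passed the filter of the edgeR test: 3 alpha subunit genes, 6 beta and gamma genes, 2 receptor genes, 3 cyclases and 6 cyclic AMP genes. Of these 0 varied beyond genes of like abundance, where 0.447% of all tested genes did, so a count of 0 is near that background. In each list of subunits, receptors and cyclases the gene with the highest TPM had an exon opposite, as had Ric8a.

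**Figure D5:**
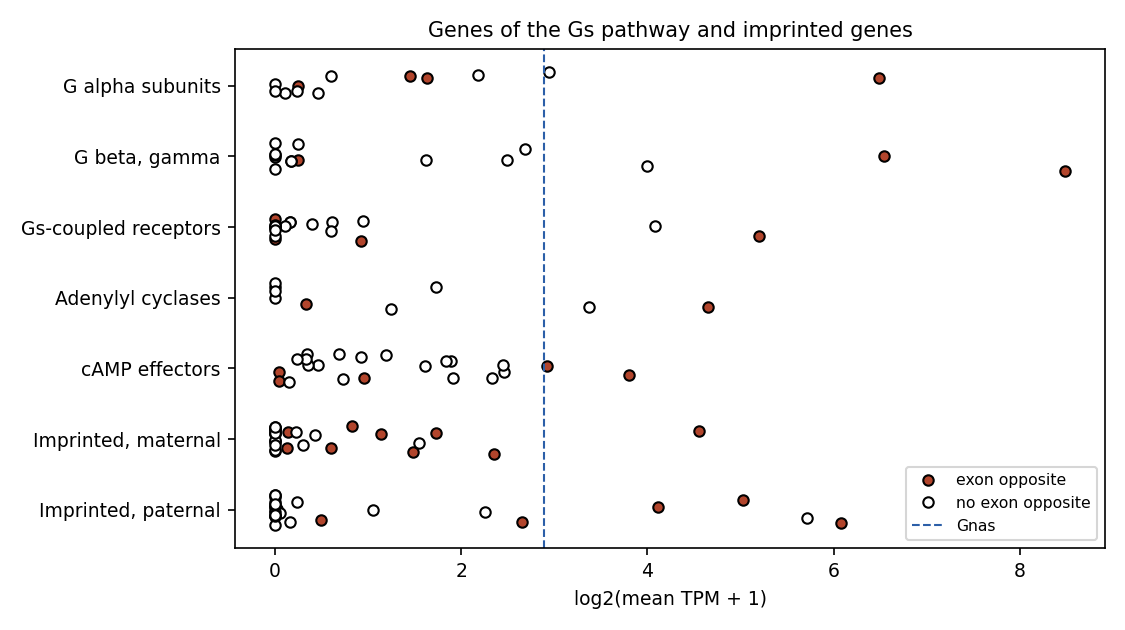
Mean TPM over the 4 Th2 libraries, as log2(TPM + 1), of genes in 7 lists, filled where the gene has an exon opposite an exon of another gene and open where it has none; the dashed line marks Gnas, and the members themselves are not drawn as points. The gene furthest right is filled in every list, and most genes lie left of the Gnas line.

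Imprinted genes elsewhere were mostly at 0, as were most genes in the tables. Genes were listed by the copy they are known for, and counts are per gene, so the copy in use here was not measured. Of 28 genes listed for the maternal copy, 13 had a count. The highest were Commd1 at 22.6 ± 3.44 TPM, Cd81 at 4.11 ± 0.581 TPM and H13 at 2.32 ± 0.608 TPM (SD, n = 4). Of 28 listed for the paternal copy, Nespas among them, 12 had a count. Snhg14 led at 66.7 ± 2.59 TPM, with Inpp5f at 51.6 ± 3.19 TPM and Nnat at 31.5 ± 7.20 TPM (SD, n = 4). Commd1, Cd81, H13, Snhg14 and Nnat each have an exon opposite, while Inpp5f has none. The fetal growth factor gene Igf2 had 0 counts, as had Peg3, Meg3, Dlk1 and Snrpn. The median of each list was 0 TPM, as it was over all genes, against 0.128 TPM over protein-coding nuclear genes. Of 10 neuroendocrine granule genes, the setting in which NESP55 is known, 3 had a count, led by Vgf at 3.79 ± 0.794 TPM (SD, n = 4), with Chgb at 1, 0, 3 and 0 counts and Scg3 at 0, 0, 3 and 0 in replicates 1 to 4, while the chromogranin gene Chga was at 0.

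For 4 other imprinted pairs with exons on both strands, the counts of each side are set out beside those of Gnas and Nespas. Both sides had counts in these 4. The listed imprinted genes Usp29, Meg3, Rtl1, Snrpn, Zdbf2 and Igf2 also have exons opposite and had 0 counts, as Nespas had. Snhg14, the noncoding host transcript that runs antisense to Ube3a, had 1960, 1958, 2736 and 2245 counts in replicates 1 to 4. Ube3a, the ubiquitin ligase gene with 1803 bases opposite it, had 37, 27, 20 and 39. Mest had 65, 82, 107 and 76 counts, against 1, 5, 1 and 6 for Copg2, which shares 912 bases with it. Commd1 had 141, 136, 243 and 172 counts, against 8, 15, 47 and 23 for Zrsr1, a gene that lies within it and overlaps its exons by 203 bases. In the first 3 pairs, 1 strand exceeded the other in all 4 libraries. Kcnq1 had 2, 4, 9 and 2 counts, against 1, 1, 2 and 4 for its antisense RNA Kcnq1ot1, which overlap by 121 bases, and neither strand was the higher in every library. In the Gnas and Nespas pair all counts belonged to Gnas on the plus strand, and in the Gm20721 and Gnas pair nearly all belonged to Gm20721 on the minus strand.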

How the data were processed

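Raw counts per gene, 1 table a library, were deposited by the authors. Per the file headers, featureCounts 1.4.6-p4 assigned pairs with both ends aligned to GENCODE M13 exons (mm10), with strand option 1. No aligner is stated in the sources used here, though an alignment name in the headers holds star2. Symbols came from GENCODE M21 on the same build, matched by identifier for 99.6% of genes, and the exons of the 3 members were the same in both. Deposited lengths and the counts gave CPM and TPM. Opposite exons were found with bedtools 2.31.1, and intervals of shares are Wilson or exact binomial (scipy 1.17.1, pandas 2.3.3, Python 3.11.15). The spread over replicates was tested in edgeR 4.0.16 with R 4.3.3 (intercept only, TMM, filterByExpr, robust fit). Each gene's quasi-dispersion was set against its trended prior, upper tail, with Benjamini-Hochberg adjustment, and the procedure was tested on simulated data. DESeq2 1.42.0 and limma 3.58.1 were alternatives, with another scaling, filter, prior, length or total and with each replicate left out. The members and lists were chosen with earlier results of these data known. Named genes are the members, genes overlapping them, counted genes within 200 kb, the 3 highest of each list by mean TPM, and the 5 tested genes nearest in profile to each tested member. Other genes named with a value, at 0, as partners or among genes opposite exons were chosen after their values were seen. Signal tracks and alignments were not used here.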

Additional observations from a re-analysis of the deposited data

Results flagged for a closer look

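In all 46 values were examined for a library that stands apart from the other 3 by Dixon's criterion, which marks about 1 in 20 groups by chance, and 6 were marked. The Gnas share of the Gnas and Gm20721 counts was 0.513% in replicate 4, against 0.337 to 0.364% in the other libraries. The log2 ratio per kilobase from the same counts was not marked, nor was the Gnas CPM, so the mark depends on the scale. Replicate 4 also had the highest share of counts in genes without an exon opposite, 9.93%, whose part in the Gnas share was not tested. In the cyclic AMP list, the phosphodiesterase gene Pde7a had a CPM of 17.0 in replicate 2, against 39.3 to 41.8 in the others. The granule gene Scg3 had a CPM of 1.35 in replicate 3, which is 3 counts, against 0 in the others. With 3 libraries at 0 any count would be marked, and a count of 0 allows up to 3 counts, so no difference is shown. Among cell markers, the T cell receptor gene Trac had a CPM of 6.30 in replicate 3, against 15.9 to 17.8. The myeloid marker Csf1r, which has an exon opposite, had a CPM of 438 in replicate 3, against 537 to 546. The B cell marker Cd79a had a CPM of 4.78 in replicate 4, against 8.88 to 9.38.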

How the results depend on the processing

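Levels depended on what they were scaled to. Scaled over protein-coding nuclear genes, Gm20721 was at 52292 TPM and Gnas at 27.1 TPM, and leaving the high-count entry CT010467.1 out of the totals gave 12632 and 6.57 TPM. With the counts of both strands added over the Gnas length, an alternative chosen after seeing the data, Gnas would be at 1639 TPM. The log2 ratio of Gm20721 over Gnas was 8.01 with no length scaling. It was 8.76 with whole counts set against only the bases opposite exons. Leaving out each replicate in turn gave 12189 to 12534 TPM for Gm20721, 5.74 to 6.82 TPM for Gnas, 0 for Nespas and a log2 ratio of 10.86 to 11.07. The number of varying genes, 22 in the fit reported, was 2 with library totals only, 56 with no count filter, 9 with a prior that was not robust, 1 with DESeq2, 0 with limma (208 at an unadjusted p under 0.05) and 11 to 21 without a replicate, the lowest without replicate 4. The causes were not tested. Adjusted p-values over 10 alternatives ran from 0.904 to 1 for Gm20721 and from 0.920 to 1 for Gnas. No paired analysis was possible because the libraries form 1 group. Counts were low for Nespas, at 0, and for the misc_RNA entries, at 0 to 15, and the part of depth in this was not tested.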
